A study of Mus musculus with 12 samples.

Results

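ERV1 repeats are the mouse genome's class I endogenous retroviruses, the remains of gammaretrovirus-like germline infections. The quantified reference of this study held 37713 features, of which 347 were repeat consensus sequences with a mouse-specific name, and the 64 ERV1 members were all of those whose class ending was ERV1 or whose name held VL30. By name, 13 members were internal regions of 3698 to 7785 nt, 49 were long terminal repeats (LTRs) of 297 to 780 nt, and 2 (RMER2 and RMER21B) were neither. RLTR4I_MM, RLTR6I_MM and MMVL30 were placed among the internal regions by name and length. A consensus stands for every genomic copy of its family, so a member has no chromosome position here, and reads that fit several similar consensus sequences were divided among them by the quantifier.

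An intact provirus of this class has an internal region carrying gag, pro, pol and env genes, flanked by LTRs that hold the promoter and the polyadenylation signal. Recombination between the LTRs leaves a solitary LTR, so LTR sequence can be transcribed without an internal region. VL30 elements are non-coding retrotransposons that murine leukemia virus particles package, and RLTR4 names the consensus of murine leukemia virus-like proviruses. In many cell types this class is silenced by H3K9 methylation, guided by zinc finger proteins and TRIM28, and by DNA methylation. LSM1 is the subunit that distinguishes the cytoplasmic LSM1-7 ring, which binds the 3′ ends of deadenylated RNAs and promotes their decapping and decay, from the nuclear LSM2-8 ring.

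Both assays used zygotes of B6D2F1 females aged 8 to 10 weeks, collected 18 to 20 h after hCG according to the labels. Total RNA-seq compared Lsm1_KD zygotes, injected with an siRNA against Lsm1, with Ctrl zygotes injected with a scrambled siRNA (labelled WT), with 2 libraries in each group. The labels place the injection in zygotes and the study's scheme places the knockdown injection in germinal vesicle oocytes, and the files do not settle which was sequenced. RIP-seq used 4 groups of 2 libraries. FLAG_IP was RNA immunoprecipitated with anti-FLAG affinity gel from zygotes injected with Lsm1-3XFlag mRNA, and FLAG_Input was RNA from a share of the same lysates. Ctrl_IP and Ctrl_Input came from zygotes that, by the labels, received Lsm1 mRNA without the tag, while their titles name IgG. The injected mRNA adds LSM1 to zygotes that keep their own. An RNA-seq library held RNA of a few pooled embryos, and a RIP-seq lysate came from a far larger pool. The study describes the libraries of a group as independent biological samples, while the labels name no separate animals or days, so p-values measure the spread between these libraries.

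The siRNA is printed because it is the agent that sets Lsm1_KD apart from Ctrl. It is 19 nt long and read 5′ to 3′ on the + strand of GRCm38 (mm10). It spans the junction of exons 2 and 3 of the 4-exon Lsm1 gene on chromosome 8, within the coding sequence, at 25792216 to 25792225 and 25793677 to 25793685. Capitals mark the bases from exon 3. The same 19 bases also occur in Gm15209, another annotated gene model, so 2 annotated genes held the full match.
Lsm1 siRNA: gatcaatttgCTAACTTAG

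Totals of the estimated counts ran between 4636492 and 31586450 in the 12 libraries. Lsm1 itself had 63.6 and 71.0 normalized CPM (counts scaled to a common library total) in Lsm1_KD and 143 and 147 in Ctrl (log2 −1.10, SE 0.22, edgeR quasi-likelihood adjusted p = 0.012). In RIP-seq, Lsm1 had 11125 and 121440 CPM in FLAG_IP, 9931 and 14731 in FLAG_Input, 24.6 and 20.2 in Ctrl_IP and 16.3 and 16.1 in Ctrl_Input. Lsm1 was thus far lower in the Ctrl arm than in the FLAG arm. With no RIP-seq library of uninjected zygotes, an excess of Lsm1 mRNA in the Ctrl arm could not be judged. All 12 oocyte and zygote markers were above 0 in each library. FLAG_IP replicate 1 stood apart from the other 7 RIP-seq libraries. Repeats took 12.7% of its counts, against 2.63% in FLAG_IP replicate 2 and 0.147 to 1.96% in the others, its TMM scaling factor was 1.87, against 0.872 to 1.02, and all 6 blood markers were above 0 in it, with a summed level of 28.0 TPM (transcript abundance scaled for length and library total), against 1.68 in FLAG_IP replicate 2. The RIP-seq counts, medians and fitted ratios below are therefore given with and without it. Without it FLAG_IP is a single library that is assumed to vary like the other groups, so its calls rest on their spread.

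ERV1 RNA was a small part of the zygote transcriptome. Summed over the 64 members, it reached 255 and 216 CPM in Lsm1_KD and 322 and 298 CPM in Ctrl. Among the repeats, ERV1 members took 17.0% (95% exact binomial interval 16.2 to 18.0%) and 18.8% (18.1 to 19.5%) of the counts in Lsm1_KD, against 30.7% (29.9 to 31.4%) and 29.2% (28.2 to 30.2%) in Ctrl. Both Lsm1_KD libraries lay below both Ctrl libraries in either measure. Summed TPM, which weights short LTRs more than long internal regions, went the other way, with 439.7 and 439.1 TPM in Lsm1_KD and 431.0 and 363.1 TPM in Ctrl. These intervals cover counting error only, and with 2 libraries against 2 the smallest two-sided exact permutation p is 0.333. Internal regions averaged 169 ± 35.0 CPM in Lsm1_KD and 265 ± 11.1 CPM in Ctrl (SD, n = 2 each). LTRs averaged 58.8 ± 5.75 CPM in Lsm1_KD and 40.8 ± 6.34 CPM in Ctrl. Internal regions thus held 76.0 and 66.9% of the ERV1 counts in Lsm1_KD, against 84.8 and 86.4% in Ctrl.

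**Figure D1:**
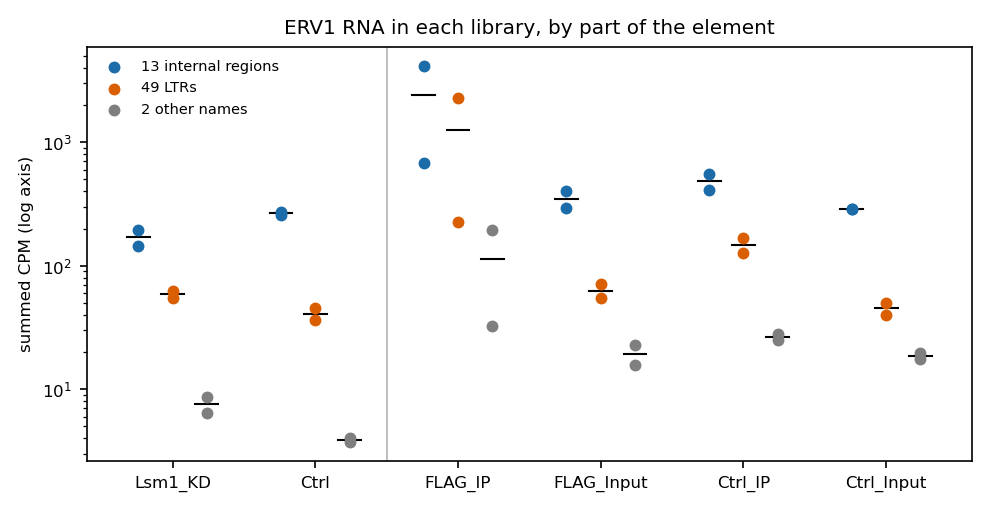
Summed CPM (log axis) of the 13 internal regions, the 49 LTRs and the 2 other names in each library, with points for libraries and bars for group means (n = 2 each), Lsm1_KD and Ctrl from total RNA-seq left of the vertical line and the RIP-seq groups right of it. In the RNA-seq the internal sums averaged 169 CPM in Lsm1_KD and 265 in Ctrl while the LTR sums averaged 58.8 CPM in Lsm1_KD and 40.8 in Ctrl, and in FLAG_IP the replicates lie far apart.

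Of the 8 members with the highest mean TPM over the 12 libraries, a mean to which FLAG_IP replicate 1 adds much, 6 were LTRs. RLTR1B_MM had 52.5 and 67.4 TPM in Lsm1_KD and 51.1 and 38.1 TPM in Ctrl. LTRIS6, of the LTR-IS family of murine retrovirus-related sequences, had 37.2 and 32.3 TPM in Lsm1_KD and 17.1 and 10.8 TPM in Ctrl. RLTR6B_Mm, a VL30 LTR, had 54.7 and 63.8 TPM in Lsm1_KD and 30.8 and 29.7 TPM in Ctrl. LTRIS6, RLTR6B_Mm and RLTR1B_MM did not overlap between the groups, though RLTR1B_MM came close, with 52.5 TPM in Lsm1_KD and 51.1 TPM in Ctrl at the nearest points. MMVL30 and LTRIS3, given next, lay lower in Lsm1_KD without overlap. MMVL30, the VL30 internal region, was the one internal region among the 8, with 42.4 and 27.6 TPM in Lsm1_KD and 65.2 and 57.5 TPM in Ctrl, and it had the highest TPM of any ERV1 member in both Ctrl libraries. Of the other 4 of these 8, RLTR1C_MM had 10.6 and 20.2 TPM in Lsm1_KD and 28.2 and 16.8 TPM in Ctrl, and LTRIS3 had 14.5 and 8.76 TPM in Lsm1_KD and 24.1 and 30.9 TPM in Ctrl. RMER2 (9.99 and 2.19 TPM in Lsm1_KD, 4.55 and 3.91 TPM in Ctrl) and RLTR14 (0 and 6.76 TPM in Lsm1_KD, 3.95 and 4.35 TPM in Ctrl) stayed low in the RNA-seq and entered through the FLAG_IP libraries, where replicate 1 had 442 TPM of RMER2 and 380.2 TPM of RLTR14.

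The knockdown comparison asks which transcripts changed when Lsm1 was reduced, and no ERV1 member passed its test. Of the 64 members, 18 had enough counts to be tested, and 46 did not. Those 46 had at most 22 counts in a library and 14 of them had none in any of the 4, while the 18 tested held 96.5% of the ERV1 counts. Called members (adjusted p under 0.05 and log2 past 1 in either direction) numbered 0 higher and 0 lower, against 5.4% higher and 2.75% lower of the 11335 features tested (edgeR). DESeq2 also called 0, against 6.41% higher and 3.31% lower of all features, and limma on log2(TPM + 1) called 2 higher, LTRIS6 and RLTR6_MM, against 3.26% of all features. At a p under 0.05 before adjustment, 2 members were higher and 2 lower, against 14.2 and 12.9% of all features. Both Lsm1_KD libraries lay above both Ctrl libraries for 9 members and below them for 4, against 29.3 and 28.6% of all features. The median log2 ratio over the 18 was 0.13, against 0.58 over the 115 repeats tested, of which 6 were called higher, and 0.01 over all features.

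By their medians, internal regions lay below 0 and LTRs above it, though members of both kinds lay on either side and the difference between the kinds was not tested. The 5 internal regions tested had a median log2 ratio of −0.53, with 4 below 0, and the 12 LTRs had a median of 0.52, with 7 above 0. These medians kept their signs under each alternative normalization, filter, tool and block and with each library left out, between −0.82 and −0.29 for the internal regions and between 0.22 and 1.05 for the LTRs. RLTR4I_MM, the internal region of murine leukemia virus-like proviruses, had the smallest p. It had 71.9 and 47.2 normalized CPM in Lsm1_KD and 92.9 and 123 in Ctrl. The groups did not overlap, and the log2 ratio was −0.87 (SE 0.27, edgeR adjusted p = 0.069). Without Lsm1_KD replicate 1 it was −1.21 (adjusted p = 0.019), and without Ctrl replicate 1 it was −1.07 (adjusted p = 0.027), so that leaving out either library added this member as a lower call, against 3.48 and 3.21% of all features. Each of these fits leaves 1 library in a group, which is assumed to vary like the other group. With all libraries, its adjusted p was 0.026 with DESeq2 (log2 −0.88) and 0.011 with edgeR without the abundance filter (log2 −0.90), both short of the log2 threshold. It was 0.23 with edgeR on single transcripts. A crossed replicate block, added after seeing the data, gave 0.0018 (edgeR). Without Lsm1_KD replicate 2 the log2 ratio was −0.59. With limma it was past −1 (−1.11, adjusted p = 0.073).

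VL30 members followed with the same split. RLTR6I_MM, an internal region of VL30-type elements, had 21.4 and 23.2 normalized CPM in Lsm1_KD and 43.8 and 30.3 in Ctrl (log2 −0.74, SE 0.31, edgeR adjusted p = 0.159). MMVL30 had 78.5 and 53.9 in Lsm1_KD and 99.2 and 91.4 in Ctrl (log2 −0.53, SE 0.25, adjusted p = 0.206). Both internal regions had each Lsm1_KD library below each Ctrl library. The VL30 LTRs lay the other way, with RLTR6B_Mm at 11.1 and 13.5 in Lsm1_KD and 5.05 and 5.23 in Ctrl (log2 1.26, SE 0.48, adjusted p = 0.12), and RLTR6_MM at 6.01 and 3.86 in Lsm1_KD and 1.21 and 1.10 in Ctrl (log2 2.06, SE 0.87, adjusted p = 0.155). LTRVL30, the VL30 LTR consensus, had no count in any RNA-seq library. None of these differences passed the test.

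**Figure D2:**
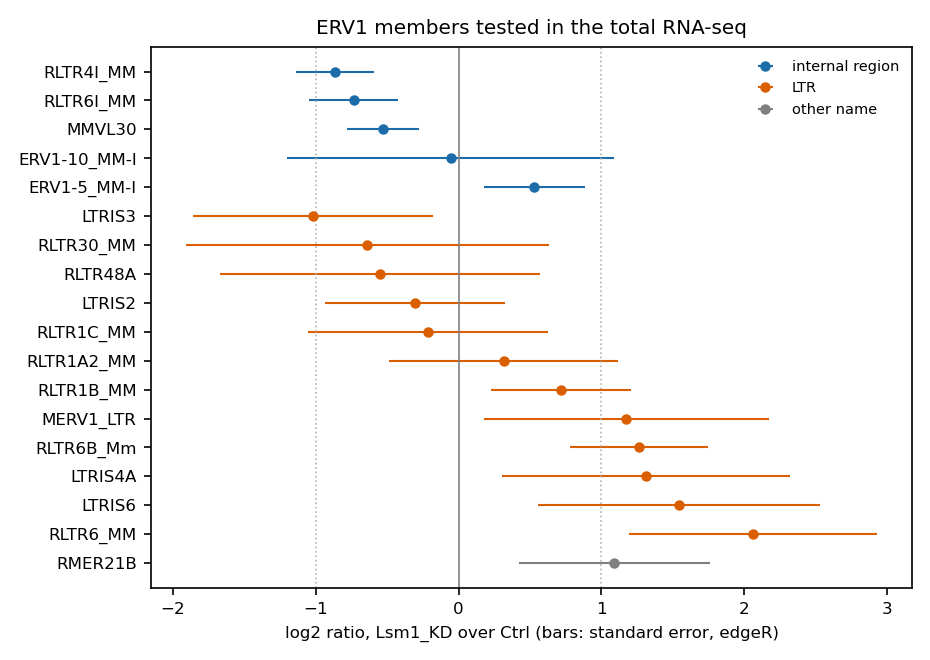
Log2 ratio of Lsm1_KD over Ctrl (x axis) with its standard error for the 18 ERV1 members tested in the total RNA-seq, grouped from top to bottom as internal regions, LTRs and the other name, with dotted lines at the log2 thresholds of −1 and 1. RLTR4I_MM (−0.87), RLTR6I_MM (−0.74) and MMVL30 (−0.53) lie left of 0 and the VL30 LTRs RLTR6B_Mm (1.26) and RLTR6_MM (2.06) right of it, and none passed the adjusted threshold.

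The remaining tested members did not pass the test either. ERV1-5_MM-I was the internal region above 0, with 26.3 and 21.1 normalized CPM in Lsm1_KD and 18.4 and 14.2 in Ctrl (log2 0.53, adjusted p = 0.364). LTRIS6 had 3.12 and 2.76 in Lsm1_KD and 1.15 and 0.826 in Ctrl (log2 1.54, adjusted p = 0.348), while LTRIS3, of the same LTR-IS family, had 2.45 and 1.56 in Lsm1_KD and 3.37 and 4.68 in Ctrl (log2 −1.02, adjusted p = 0.475). LTR-IS members therefore lay on both sides of 0. RLTR1B_MM had 9.12 and 12.1 in Lsm1_KD and 7.14 and 5.78 in Ctrl (log2 0.72, adjusted p = 0.379).

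The balance between VL30 LTR and internal RNA was taken within each library, so that library scaling cancels. The summed CPM of RLTR6_MM, RLTR6B_Mm and LTRVL30 over that of MMVL30 and RLTR6I_MM was 0.171 and 0.225 in Lsm1_KD and 0.0437 and 0.0524 in Ctrl. The Lsm1_KD libraries lay above the Ctrl libraries, and the exact permutation p was 0.333, the smallest this design allows. Both terms differed. LTR CPM was 16.5 and 17.0 in Lsm1_KD and 6.65 and 6.27 in Ctrl, and internal CPM was 96.8 and 75.6 in Lsm1_KD and 152 and 119.6 in Ctrl. The LTR sums rested on 76.6 and 189 estimated counts in Lsm1_KD and 92.8 and 46.3 in Ctrl. In the RIP-seq libraries the same ratio was 0.0603 and 0.0650 in FLAG_IP, 0.0946 and 0.0648 in FLAG_Input, 0.0783 and 0.0709 in Ctrl_IP and 0.0750 and 0.0756 in Ctrl_Input. Those libraries were made with another kit, so these values are not set against the RNA-seq. For RLTR4 the corresponding ratio (RLTR4_MM over RLTR4I_MM) was 0.0033 and 0.011 in Lsm1_KD and 0.0017 and 0.0028 in Ctrl, on 1.1 to 5.6 counts of the LTR, too few to set the groups apart.

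Summed marker lists of other cell types differed between Lsm1_KD and Ctrl, each sum resting on the few genes above 0. In each RNA-seq library these were 4 to 5 of the 10 cumulus markers and 2 of the 7 sperm markers. The summed TPM of 10 cumulus and granulosa markers was 149 to 171 in Lsm1_KD and 264 to 266 in Ctrl, with Fshr, Amh, Inha, Amhr2 and Ptx3 at 0 in the RNA-seq. That of 7 sperm and spermatid markers was 28.1 to 39.9 in Lsm1_KD and 10.6 to 11.6 in Ctrl, with Prm1, Tnp1, Tnp2, Odf1 and Smcp at 0. That of 6 blood markers was 0 and 0.199 in Lsm1_KD, 1.69 in Ctrl replicate 1 and 36.8 in Ctrl replicate 2. Their part in the ERV1 values was not tested. Whether these counts came from such cells at all was not tested, and in bulk libraries fewer cells of a type and less RNA per cell cannot be told apart.

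Genes known to silence, restrict or admit viruses of this class were read from 3 lists. Of 24 silencing genes, 3 were higher in Lsm1_KD at an adjusted p under 0.05 (edgeR) and 0 were lower, against 6.45% higher and 4.56% lower of all features. They were Hells, a chromatin remodeler needed for DNA methylation of repeats (247 and 269 normalized CPM in Lsm1_KD, 118 and 116 in Ctrl, log2 1.14, adjusted p = 0.0075), Cbx1, which encodes the H3K9me3 reader HP1β (144 and 192 in Lsm1_KD, 90.1 and 67.8 in Ctrl, log2 1.09, adjusted p = 0.020), and Cbx3, which encodes HP1γ (376 and 190 in Lsm1_KD, 51.1 and 133 in Ctrl, log2 1.62, adjusted p = 0.036). The study itself reported that Hp1β RNA rarely changed in its RNA-seq, and its qPCR of Hp1β found no significant difference. The median of the silencing list was 0.00. The 3 with the highest mean TPM did not pass: Uhrf1, which brings DNMT1 to hemimethylated DNA, had a log2 ratio of −0.04 (adjusted p = 0.94), the maintenance methyltransferase Dnmt1 had −0.21 (adjusted p = 0.56), and Chaf1a, the large subunit of the chromatin assembly factor CAF-1, had −0.09 (adjusted p = 0.81).

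Among 12 genes that act on retroviral RNA or capsids, 6 were tested in the RNA-seq and 0 passed in either direction. N4bp1 had a log2 ratio of −0.25 (adjusted p = 0.44), Samhd1, a dNTP hydrolase, had −0.19 (adjusted p = 0.66), and Adar, an RNA adenosine deaminase, had −0.28 (adjusted p = 0.54). Of the 4 gammaretrovirus receptor genes, 0 passed. Slc20a1, a phosphate transporter, had −0.06 (adjusted p = 0.90), Xpr1, the receptor of xenotropic and polytropic viruses, had −0.00 (adjusted p = 0.99), and Slc7a1, the receptor of ecotropic viruses, had 0.14 (adjusted p = 0.81).

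In RIP-seq, the Input libraries show whether the arms differed before immunoprecipitation. Summed ERV1 RNA was 494 and 366 CPM in FLAG_Input and 360.5 and 347 CPM in Ctrl_Input. Of the 60 members tested in RIP-seq (ERV1-3_MM-LTR, ERV1-9_MM-LTR, LTRVL30 and RLTR1E_MM were too low), 0 were called in either direction, against 0% of the 18972 features (edgeR, adjusted p = 1 for each member), and DESeq2 and limma also called 0. At a p under 0.05 before adjustment, 2 members were higher in FLAG_Input and 0 lower, against 0.88% of all features higher, and 7 were higher and 0 lower without FLAG_IP replicate 1, against 1.92% of all features. The 2 were ERV1-6_MM-I (log2 1.88) and RLTR48B, which had no counts in Ctrl_Input. The median log2 ratio was 0.60, against 0.67 over all repeats and 0.02 over all features, with 53 of the 60 members and all 13 internal regions above 0. Without FLAG_IP replicate 1 the median was again 0.60, and 0 members were called, against 0.0105% of all features. The groups did not overlap for 29 members with FLAG_Input above and 1 with it below, against 18.3 and 15.9% of all features. Repeats as a whole, ERV1 members included, were thus higher in FLAG_Input by their median without any single call.

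Over Input, ERV1 RNA was enriched in FLAG_IP with all 8 libraries fitted. Summed ERV1 RNA was 6625 and 932 CPM in FLAG_IP, against 494 and 366 CPM in FLAG_Input. Of the 60 members, 48 were called higher and 0 lower, against 20.9% higher and 5.11% lower of all features (edgeR). The abundance filter ran over all 8 libraries, so a member could be among the 60 through its FLAG_IP counts alone. This count and the median below are therefore partly selected. With the 2 Input groups alone, 35 members passed the filter. ERV1-2_MM-LTR, among the 48, had 0 counts in both FLAG_Input libraries. Both FLAG_IP libraries lay above both FLAG_Input libraries for 56 members, against 42.1% of all features. The median log2 ratio was 3.88, against 4.07 over 324 repeats, of which 268 were called higher, and 0.49 over all features. By part, 11 of 13 internal regions (median 4.31), 36 of 45 LTRs (median 3.88) and 1 of the 2 other names were called. Without FLAG_IP replicate 1 the count was 28 of 60, all among the 48, against 9.93% of all features, and the median was 2.18, against 2.28 over the repeats and 0.10 over all features. These were 9 of 13 internal regions (median 2.68), 18 of 45 LTRs (median 2.18) and 1 of the 2 other names. Without FLAG_Input replicate 1 the count was 10, against 2.27% of all features, and without FLAG_Input replicate 2 it was 15, against 3.83%. Limma called 15, against 2.57%, and a fit on single transcripts called 0, against 0.0151%. ERV1 members shared their enrichment with the other repeats in both fits.

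The internal region ERV1-1_MM-I had the smallest p in this comparison. It had 285 and 104 normalized CPM in FLAG_IP and 7.70 and 11.9 in FLAG_Input (log2 4.31, SE 0.54, edgeR adjusted p = 0.0018), and its log2 ratio without FLAG_IP replicate 1 was 3.37. ERV1-10_MM-I had 120.3 and 28.2 in FLAG_IP and 5.14 and 5.13 in FLAG_Input (log2 3.85, adjusted p = 0.0031, 2.42 without that library). MERV1_I, a further internal region, had 102 and 18.1 in FLAG_IP and 2.59 and 2.48 in FLAG_Input (log2 4.56, adjusted p = 0.0031, 2.79 without). Both FLAG_IP libraries were above both FLAG_Input libraries for each of these internal regions, and replicate 1 was above replicate 2.

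LTRs filled most of the next places. RLTR48A had 51.9 and 12.6 normalized CPM in FLAG_IP and 1.28 and 1.95 in FLAG_Input (log2 4.32, adjusted p = 0.0040). LTRIS3 had 68.3 and 16.0 in FLAG_IP and 3.57 and 2.85 in FLAG_Input (log2 3.72, adjusted p = 0.0040), and LTRIS_Mus, of the same family, had 71.0 and 16.8 in FLAG_IP and 4.12 and 2.56 in FLAG_Input (log2 3.72, adjusted p = 0.0050). RMER2 had 87.7 and 19.4 in FLAG_IP and 5.74 and 3.91 in FLAG_Input (log2 3.47, adjusted p = 0.0047). Without FLAG_IP replicate 1, with FLAG_IP as a single library, all were called, at log2 2.92 for RLTR48A, 2.28 for LTRIS3, 2.29 for LTRIS_Mus and 1.97 for RMER2. ERV1-5B_MM-LTR (73.4 and 10.9 in FLAG_IP, 2.93 and 1.75 in FLAG_Input, log2 4.17, adjusted p = 0.0055) and RLTR1C_MM (81.6 and 12.2 in FLAG_IP, 2.93 and 3.01 in FLAG_Input, log2 3.98, adjusted p = 0.0056) had log2 ratios of 2.18 and 1.997 without it.

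Among the VL30 members, RLTR6I_MM had 721 and 259 normalized CPM in FLAG_IP and 50.9 and 61.8 in FLAG_Input (log2 3.12, SE 0.57, adjusted p = 0.0059, 2.16 without FLAG_IP replicate 1). MMVL30 had 352 and 107 in FLAG_IP and 46.7 and 47.2 in FLAG_Input (log2 2.29, SE 0.55, adjusted p = 0.0167), and 1.15 (adjusted p = 0.024) without that library. RLTR6B_Mm had 44.8 and 18.3 in FLAG_IP and 5.87 and 5.70 in FLAG_Input (log2 2.45, adjusted p = 0.0072, 1.63 without). The VL30 LTR RLTR6_MM had 19.8 and 5.40 in FLAG_IP and 3.36 and 1.38 in FLAG_Input (log2 2.41, adjusted p = 0.033), and was not called without that library (log2 1.15, adjusted p = 0.191). LTRVL30 had 1 count, in FLAG_IP replicate 1.

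The murine leukemia virus-like RLTR4 members parted. RLTR4I_MM had 448 and 212 normalized CPM in FLAG_IP and 294 and 184 in FLAG_Input (log2 0.47, SE 0.52, edgeR adjusted p = 0.473), and −0.21 (adjusted p = 0.565) without FLAG_IP replicate 1. Its LTR, RLTR4_MM, had 15.5 and 3.93 in FLAG_IP and 1.06 and 1.26 in FLAG_Input (log2 3.06, adjusted p = 0.0215), and 1.71 (adjusted p = 0.086) without that library. ERV1-5_MM-I was the other internal region not called, with 87.8 and 19.5 in FLAG_IP and 27.0 and 20.3 in FLAG_Input (log2 1.18, adjusted p = 0.099), and a log2 ratio of −0.32 without FLAG_IP replicate 1. RMER21B had the lowest log2 ratio of the 60, 0.09 (SE 0.33, adjusted p = 0.838), and 0.11 (adjusted p = 0.813) without that library. The remaining 9 members not called were LTRs, among them the abundant LTRIS6 (log2 1.14, adjusted p = 0.096), which had 0.35 (adjusted p = 0.558) without FLAG_IP replicate 1.

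Names beginning with RLTR4 also take in 7 LTRs of other families (RLTR41A2, RLTR41B, RLTR41C, RLTR48A, RLTR48B, RLTR48C and RLTR49). Their RNA-seq counts reached at most 25. In FLAG_IP they had 5.17 to 96.3 CPM in replicate 1 and 0.428 to 11.0 CPM in replicate 2, in Ctrl_IP 0.580 to 5.48 CPM, and in the Input libraries at most 1.71 CPM. In FLAG_IP over FLAG_Input 6 of the 7 were called higher, against 20.9% of all features, and 3 without FLAG_IP replicate 1, against 9.93%.

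By its labels, the Ctrl arm shows what the beads recovered without a FLAG tag, while its titles name IgG. Summed ERV1 RNA was 749 and 564 CPM in Ctrl_IP, against 360.5 and 347 CPM in Ctrl_Input. The one member called of 60 was ERV1-1_MM-I, with 66.1 and 41.4 normalized CPM in Ctrl_IP and 4.92 and 4.72 in Ctrl_Input (log2 3.47, SE 0.52, edgeR adjusted p = 0.0056), against 2.12% of all features called higher and 0.00527% lower. At a p under 0.05 before adjustment, 32 members were higher and 0 lower, against 16.3 and 0.733% of all features, and 40 were higher and 1 lower without FLAG_IP replicate 1, against 20.4% of all features higher. Both Ctrl_IP libraries lay above both Ctrl_Input libraries for 50 members, against 33.4% of all features. The median log2 ratio over the 60 was 2.13, against 2.12 over the repeats and 0.12 over all features.

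The count of calls in the Ctrl arm moved with the fit. With the lysate as a block, pairing each IP with its own Input, 20 of 60 members were called higher, against 7.57% of all features. Without FLAG_IP replicate 1, which enters through the shared estimate of spread, 24 were called, against 9.32% of all features, and the median was 2.08. Without FLAG_IP replicate 2, 32 were called, against 10.7% of all features, and 3 were called without either FLAG_Input library, against 2.37 and 2.46%, and 2 without Ctrl_Input replicate 1, against 0.759%. DESeq2 called 10, against 7.08%, limma called 0, against 0.495%, and the fit without TMM called 0, against 0.69%. ERV1-1_MM-I was among the calls of the block fit, of DESeq2 and of both fits without a FLAG_IP library, with a log2 ratio of 3.42 without FLAG_IP replicate 1. Below 0 with no overlap lay 2 members, the RLTR4 and ERV1-5 internal regions, against 27.2% of all features. RLTR4I_MM had 182 and 195 normalized CPM in Ctrl_IP and 204 and 222 in Ctrl_Input (log2 −0.18, and −0.23 without FLAG_IP replicate 1), and ERV1-5_MM-I had 10.8 and 12.9 in Ctrl_IP and 19.9 and 20.9 in Ctrl_Input (log2 −0.78, adjusted p = 0.535, and −0.83, adjusted p = 0.041, without FLAG_IP replicate 1).

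The test of the difference between the arms, (FLAG_IP over FLAG_Input) over (Ctrl_IP over Ctrl_Input), called 0 of 60 members and 0% of all features (edgeR). DESeq2, limma and the fit with the lysate as a block also called 0, the last of them against 0.0211% of all features. At a p under 0.05 before adjustment, 15 members were higher in the FLAG arm and 0 lower, against 3.99% of all features higher. The median log2 difference was 1.72, against 1.61 over the repeats and 0.02 over all features, and 57 of 60 were above 0. The smallest p belonged to ERV1-5_MM-LTR (log2 2.91, SE 0.95), ERV1-10_MM-I (log2 2.06, SE 0.74) and RLTR24_MM (log2 3.23, SE 1.20), each with an edgeR adjusted p of 0.79. ERV1-1_MM-I, enriched in both arms, had a log2 difference of 0.84. Without FLAG_IP replicate 1 the log2 difference was 1.87 for ERV1-5_MM-LTR, 0.67 for ERV1-10_MM-I, 1.09 for RLTR24_MM and −0.05 for ERV1-1_MM-I. The value over the members rests on FLAG_IP replicate 1. Without it the median was 0.16, 0 were called, against 0.00527% of all features, and 2 were higher at a p under 0.05 before adjustment, against 2.66%, whereas without FLAG_IP replicate 2, 31 of 60 were called higher, against 8.22% of all features, with a median of 2.46. These members thus had a difference in 1 lysate of the FLAG arm that the other did not have at that size.

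**Figure D3:**
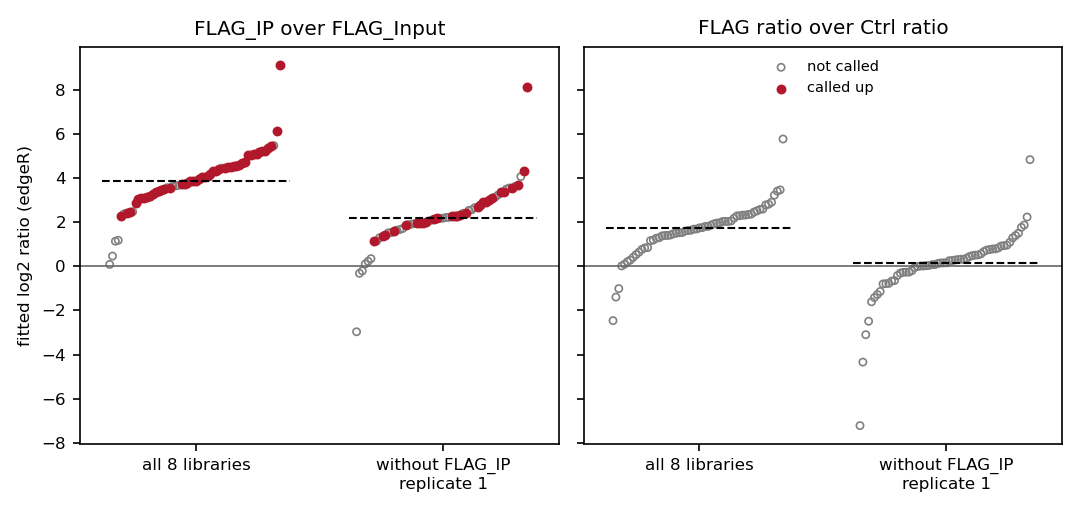
Fitted log2 ratios of the 60 ERV1 members tested (each point a member, sorted) for FLAG_IP over FLAG_Input on the left and for the FLAG ratio over the Ctrl ratio on the right, each with all 8 RIP-seq libraries and without FLAG_IP replicate 1, with filled points for members called up and dashed lines at the medians. The medians are 3.88 and 2.18 on the left and 1.72 and 0.16 on the right, and the isolated extreme points include members with a group at 0 counts, whose fitted value is no estimate of size.

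Taken within single lysates, IP CPM over Input CPM of summed ERV1 RNA was 13.4 and 2.55 in the FLAG lysates and 2.08 and 1.63 in the Ctrl lysates. Internal regions had 10.4 and 2.28 in the FLAG lysates and 1.92 and 1.42 in the Ctrl lysates, and LTRs had 32.0 and 4.10 in the FLAG lysates and 3.32 and 3.14 in the Ctrl lysates. The LTR sum had the higher ratio in each of the 4 lysates, and the internal sum was carried by RLTR4I_MM, with 54.7 to 67.3% of internal Input CPM. Without RLTR4I_MM the internal ratio was 25.4 and 3.66 in the FLAG lysates and 3.43 and 2.37 in the Ctrl lysates, above the LTR ratio in Ctrl lysate 1. Over single members the order was reversed, with median log2 ratios of 5.57 and 2.44 for internal regions and 5.13 and 2.06 for LTRs in the FLAG lysates, and of 2.09 and 1.55 for internal regions and 1.69 and 1.41 for LTRs in the Ctrl lysates. Over all repeats the ratio was 50.3 and 7.95 in the FLAG lysates and 10.2 and 7.31 in the Ctrl lysates, so that summed ERV1 RNA lay below the summed repeats in each lysate. ERV1 members accordingly made up 5.21 and 3.55% of repeat counts in FLAG_IP, against 19.5 and 11.1% in FLAG_Input, and 3.82 and 5.23% in Ctrl_IP, against 18.7 and 23.5% in Ctrl_Input.

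Of the 29 members with at least 10 Input counts and a ratio in all 4 lysates, 14 (48.3%) had both FLAG lysates above both Ctrl lysates, as did 77 of 186 repeats and 14.3% of 13083 features. Their median log2 ratios were 5.03 and 2.002 in the FLAG lysates and 1.93 and 1.32 in the Ctrl lysates. FLAG lysate 2 alone lay above both Ctrl lysates for 14 of the 29 members, 77 of the 186 repeats and 2447 of the 13083 features.

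The order of members was in part shared between lysates. Across members, Spearman's rho of the IP over Input ratio was 0.80 between the FLAG lysates (n = 35), 0.63 between the Ctrl lysates (n = 29) and 0.49 to 0.80 across arms (n = 30 to 35), as a description of members that share libraries. At the top, ERV1-1_MM-I had ratios of 75.0 and 8.69 in the FLAG lysates and 15.4 and 9.49 in the Ctrl lysates, and was the highest of 36 members in Ctrl lysate 1. At the bottom, RLTR4I_MM had 3.09 and 1.15 in the FLAG lysates and 1.02 and 0.9503 in the Ctrl lysates, with a rank between 2 and 4 from the lowest in each. ERV1-5_MM-I had 6.59 and 0.953 in the FLAG lysates and 0.621 and 0.669 in the Ctrl lysates. It was the lowest in FLAG lysate 2 and Ctrl lysate 2 among members above 0 in the IP, over which ranks were taken. ERV1-9_MM-LTR, at 0 in the IP of FLAG lysate 2, was left out of the ranks. MMVL30 had 15.3 and 2.24 in the FLAG lysates and 2.99 and 1.80 in the Ctrl lysates. From the lowest it ranked 6 of 41 and 6 of 39 in the FLAG lysates, and 16 of 36 and 10 of 30 in the Ctrl lysates. RLTR4I_MM, the member with the lowest p in the knockdown, was therefore close to its Input level in 3 of 4 immunoprecipitates.

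**Figure D4:**
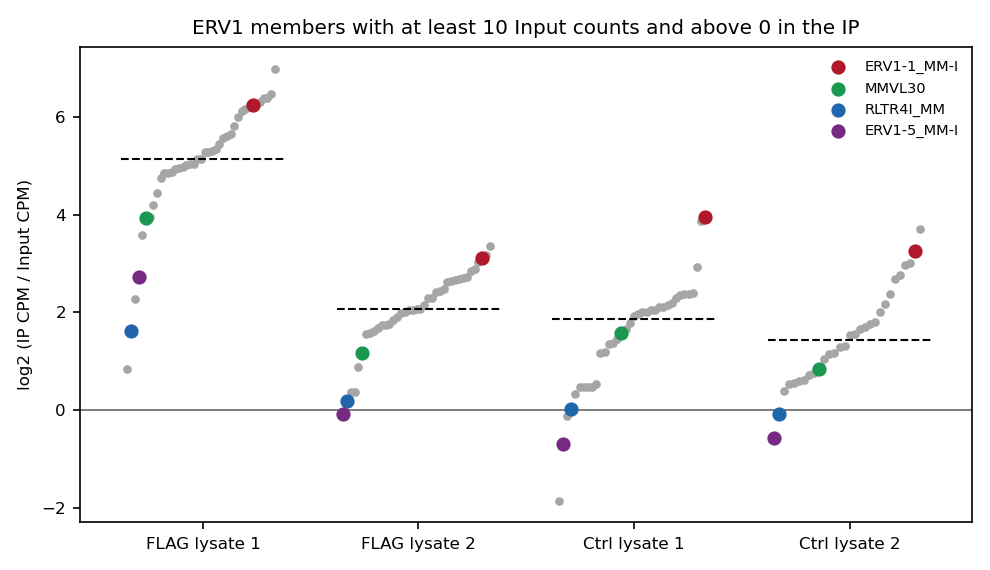
Log2 of IP CPM over Input CPM (y axis, not TMM-scaled) in each of the 4 lysates for ERV1 members with at least 10 Input counts and a value above 0 in the IP, sorted within a lysate, with dashed lines at the medians (5.14, 2.06, 1.86 and 1.43) and 4 members in colour. ERV1-1_MM-I lies near the top and RLTR4I_MM and ERV1-5_MM-I near the bottom in each lysate.

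ERV1-5 showed how parts of a family parted in the immunoprecipitates. The CPM of its LTRs (ERV1-5_MM-LTR and ERV1-5B_MM-LTR) over that of ERV1-5_MM-I was 1.05 and 0.873 in FLAG_IP and 0.155 and 0.147 in FLAG_Input. In the Ctrl arm it was 0.725 and 0.8005 in Ctrl_IP and 0.144 and 0.147 in Ctrl_Input. The shift of the ERV1-5 balance towards the LTR was thus present in both arms, and the IP libraries of each arm did not overlap its Input libraries. In the RNA-seq the ratio was 0.073 and 0.148 in Lsm1_KD and 0.062 and 0.123 in Ctrl, which overlap. The balance was reversed in MERV1, whose LTR over internal ratio was 0.411 and 0.357 in FLAG_IP and 0.672 and 0.689 in FLAG_Input, and 0.250 and 0.181 in Ctrl_IP and 0.458 and 0.455 in Ctrl_Input.

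**Figure D5:**
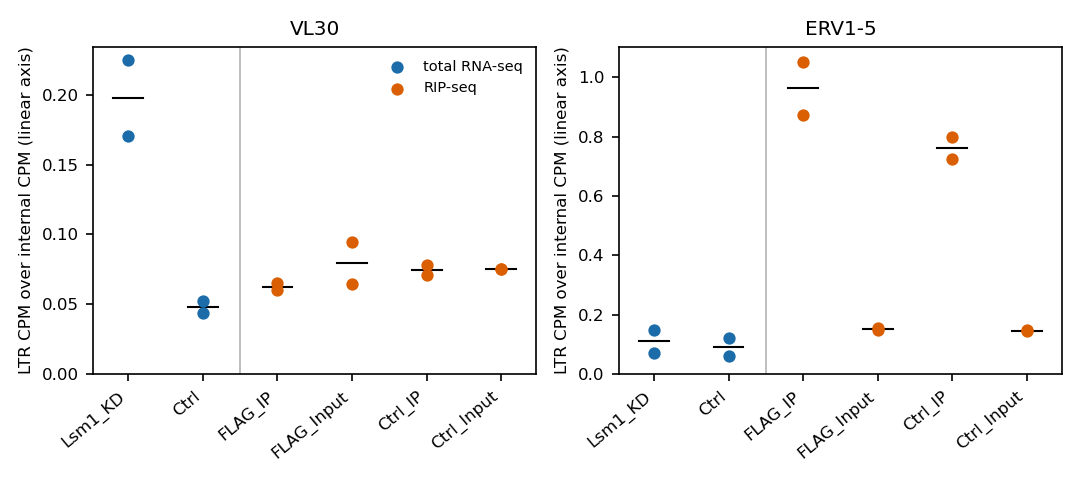
LTR CPM over internal CPM (linear axes) of VL30 on the left and of ERV1-5 on the right in each library, with bars at group means (n = 2 each), blue for total RNA-seq and orange for RIP-seq. VL30 ratios are 0.171 and 0.225 in Lsm1_KD and 0.0437 and 0.0524 in Ctrl, and ERV1-5 ratios are 0.725 to 1.05 in the 4 immunoprecipitates and 0.144 to 0.155 in the 4 Inputs.

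Of the host lists in RIP-seq, 2 silencing genes were higher in FLAG_IP over FLAG_Input at an adjusted p under 0.05 (edgeR) and 1 was lower, against 21% higher and 5.48% lower of all features. In the fit without FLAG_IP replicate 1, 2 were higher and 6 lower, against 10.5% higher and 9.48% lower. Yy1, whose product binds murine leukemia virus LTRs, had a log2 ratio of 1.10 (adjusted p = 0.032), and 0.91 (adjusted p = 0.047) without that library. Dnmt3l, a cofactor of de novo DNA methylation, had −1.61 (adjusted p = 0.027), and −1.09 (adjusted p = 0.010) without it. Cbx3 had 1.10 (adjusted p = 0.042), and did not pass without it (adjusted p = 0.084). The genes that passed without it alone were Rif1 (log2 0.93, higher) and, all lower, Cbx5 (log2 −1.03), Dnmt1 (log2 −1.03), Uhrf1 (log2 −0.92), Dnmt3a (log2 −0.78) and Suv39h2 (log2 −0.66). In Ctrl_IP over Ctrl_Input without FLAG_IP replicate 1, Dnmt1 (log2 −0.61), Uhrf1 (log2 −0.64) and Dnmt3a (log2 −0.54) were lower as well, and 0 silencing genes were higher, against 9.6% higher and 4.21% lower of all features.

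All 12 restriction genes were tested, and 21% of all features were higher in FLAG_IP over FLAG_Input at an adjusted p under 0.05 with all libraries. Among these genes, Khnyn, a nuclease that works with the antiviral protein ZAP, was higher (log2 4.86, edgeR adjusted p = 0.0093). Its log2 ratio without FLAG_IP replicate 1 was 3.71. Apobec3, a cytidine deaminase (log2 4.98, adjusted p = 0.030), Trim25, a ubiquitin ligase that assists ZAP (log2 4.63, adjusted p = 0.0096), and Fv1, a capsid-binding factor (log2 3.97, adjusted p = 0.024), were higher with all libraries and did not pass without that replicate (adjusted p of 0.067 for Apobec3, 0.054 for Trim25 and 0.18 for Fv1). In Ctrl_IP over Ctrl_Input none of these 4 genes passed with all libraries, against 2.12% of all features, and Fv1 had a log2 ratio of 2.92 without FLAG_IP replicate 1. All 4 of these restriction genes were low in FLAG_Input. Normalized CPM there was 0.510 and 0.163 for Khnyn, 0.085 and 0.244 for Apobec3, 0.553 and 0.773 for Trim25 and 0.170 and 1.34 for Fv1. Their large log2 ratios therefore rest on few Input counts and give no firm estimate of size. Of the 4 receptor genes, 0 passed in either comparison with all libraries. Of all features, 21% were higher and 5.48% lower in FLAG_IP over FLAG_Input, and 2.12% higher and 0.00527% lower in Ctrl_IP over Ctrl_Input. Slc20a1, fitted without FLAG_IP replicate 1, had a log2 ratio of 0.87 in FLAG_IP over FLAG_Input and of 1.35 in Ctrl_IP over Ctrl_Input.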

How the data were processed

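Total RNA-seq (4 libraries, 2 groups) and RIP-seq (8 libraries, 4 groups) of mouse zygotes were quantified by the authors with Salmon against RefSeq transcripts and Repbase consensus sequences, with the mm10 build named in the notes. Trimmomatic stands in the submitters' notes and another trimmer in the study's methods, and the strand mode of the quantification is not given in the sources used here. The deposited values are estimated counts, of which 41.7% of the 630 above 0 for ERV1 members were not whole (tolerance 1e-06), and TPM computed by the authors with Salmon. The labels name KAPA RiboErase kits for RNA-seq and SMARTer Stranded v2 kits for RIP-seq, so levels were compared within an assay.

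Of 37366 transcripts, 37072 were matched to RefSeq genes and summed per gene, which with the repeats gave 25091 features. Estimated counts were rounded and tested with edgeR 4.0.16 (quasi-likelihood, TMM, filterByExpr, R 4.3.3) in one fit per assay, with p-values adjusted over all 11335 (RNA-seq) or 18972 (RIP-seq) features. A member was called at an adjusted p under 0.05 and a log2 ratio past 1. CPM is on the edgeR scale where called normalized and otherwise relative to the total counts. A count of 0 allows up to 3 counts, or 0.0950 to 0.647 CPM. In RIP-seq the same-numbered IP and Input were taken as 1 lysate, because the Input was a share of it, and their deviations correlated at 0.115 (FLAG) and 0.058 (Ctrl). The shares over all features were taken from each fit. Alternatives were DESeq2 1.42.0, limma 3.58.1 on log2(TPM + 1), no TMM, no abundance filter, single transcripts, replicate blocks, the 2 groups alone and leaving out each library. The code was tested on simulated data.

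Named members were the 8 with the highest mean TPM, those called in a comparison (up to 10 per direction by p, or the 3 with the smallest p), and those whose names hold VL30, MULV, MURRS, MURVY, RLTR6 or RLTR4. Members and gene lists were chosen with earlier results of these data known. The RIP-seq result of 1 gene of the restriction list is not reported here.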

Additional observations from a re-analysis of the deposited data

How the results depend on the processing

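Each group has 2 libraries, and a repeat consensus pools all genomic copies. In the RNA-seq 46 of 64 ERV1 members fell below the abundance filter, so differences in them could be missed at this depth. Without the filter 50 members were tested and 0 called in either direction, against 804 higher and 509 lower of 16703 features. In Lsm1_KD over Ctrl, the median log2 ratio of the members tested (0.13) was 0.061 without TMM, 0.55 without the abundance filter, −0.030 with limma, 0.11 on single transcripts and 0.10 with the replicate block. The same-numbered libraries shared no label but a number and correlated at −0.112, so a crossed replicate block was added after seeing the data, with a median of 0.092. Leaving out 1 library gave a median of 0.15 to 0.74. Limma called 2 members up, and leaving out 1 library gave 0 to 1 called down. In FLAG_Input over Ctrl_Input the median (0.60) was 0.27 with limma, 0.40 with the 2 groups alone and 0.42 to 0.77 without 1 library, and the lysate block could not be fitted, since a lysate belongs to 1 arm. In FLAG_IP over FLAG_Input, 15 members were called up by limma and 0 on single transcripts, and leaving out 1 library gave 10 to 57, the 10 without FLAG_Input replicate 1, with medians of 2.18 to 4.55. In Ctrl_IP over Ctrl_Input, the call of 1 member became 10 with DESeq2, 0 without TMM, 21 without the filter, 0 with limma, 0 on single transcripts, 20 with the replicate block and 26 with the 2 groups alone, and leaving out 1 library gave 1 to 32. Its median was 0.77 with limma, 1.91 with the 2 groups alone and 1.74 to 2.43 without 1 library. Calls over all features in Ctrl_IP over Ctrl_Input were 1597 of 23011 without the filter and 2119 of 15739 with the 2 groups alone. In FLAG_IP over FLAG_Input, the highest count of members came without FLAG_IP replicate 2. That fit also called more of all features than the main fit. For the difference between the arms, leaving out 1 library gave 0 to 31 members called up and medians of 0.16 to 2.46. The causes of these shifts were not tested. Without TMM the median of all features moved by 0.68 in FLAG_IP over FLAG_Input, by 0.15 in Ctrl_IP over Ctrl_Input and by 0.48 in the difference between the arms, and with limma by −0.24 in Lsm1_KD over Ctrl. The share of calls that were higher in Lsm1_KD was 66.2%, 58.3% without TMM and 37.6% with limma. No called value changed direction under these alternatives, and the replicate blocks moved no other count of calls by over 1.5 times.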
